A study of Mus musculus with 11 samples.

Results

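Tight junctions are the belts of protein that seal neighbouring epithelial cells to each other at their apical edge. Claudins span the membrane and form the seal itself, occludin and the junctional adhesion molecules join them in the membrane, and the zonula occludens proteins tie the strands to actin from the inside. In the mammary gland these junctions are leaky during pregnancy, close around the onset of lactation so that milk and blood stay apart, and open again when milk removal stops. The genes described here are 9 tight junction genes of the mouse, 5 claudins (Cldn1, Cldn3, Cldn4, Cldn7 and Cldn8), 2 further membrane proteins (Ocln, which encodes occludin, and F11r, which encodes junctional adhesion molecule A) and 2 scaffolds (Tjp1, which encodes ZO-1, and Tjp3, which encodes ZO-3). They were chosen by name, for their function, out of 22196 genes in the tables, and all 9 were among the 12716 genes that passed a filter on low counts and were tested.

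RNA was sequenced from whole inguinal mammary glands in 11 libraries labelled PND16.5, taken 16 days after delivery on a normal chow diet. The Knockout group (6 libraries) had the genotype Tsc1-fl/fl; Adipoq-Cre-Tg/+, and the Wild-Type group (5 libraries) had the genotype Tsc1-fl/fl; Adipoq-Cre-+/+, so both carried the floxed Tsc1 alleles and the Wild-Type animals lacked the Cre transgene. Cre from the adiponectin gene Adipoq is active in fat cells, and Tsc1 encodes a subunit of the complex that restrains the growth kinase complex mTORC1. Since the whole gland was sequenced, fewer epithelial cells and less junction RNA per epithelial cell cannot be told apart. Whether the glands were lactating, and whether each library came from a separate animal, is not stated in the labels, and p-values measure the spread between these libraries.

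Each library held between 25817975 and 37894237 estimated reads. Tsc1 itself lay between 8.31 and 11.9 CPM (reads per library of fixed size, with TMM factors that set the libraries on one scale) in Knockout and between 9.55 and 12.2 CPM in Wild-Type (log2 difference -0.09 ± 0.11 SE, adjusted p = 0.772 by edgeR's quasi-likelihood test); the gene sum does not separate the floxed part from the rest, so it does not check the labels. In TPM, a level per length of transcript, 8 milk protein genes together held 679010 to 754839 in Knockout and 736470 to 789732 in Wild-Type. The 5 genes of an epithelial list (Krt7, Krt8, Krt18, Krt19 and Epcam) summed to between 199 and 370 TPM in Knockout and between 131 and 304 TPM in Wild-Type, and 8 adipocyte genes to between 1329 and 2321 TPM in Knockout and between 677 and 1173 TPM in Wild-Type. A myoepithelial list summed to between 161 and 288 TPM in Knockout and between 120 and 238 TPM in Wild-Type. Skeletal muscle genes reached 671 TPM in Knockout 1 against at most 43.3 TPM in any Wild-Type library. B cell genes summed to at most 11.9 TPM in Knockout and 48.1 TPM in Wild-Type, T cell genes to at most 7.63 and 17.9 TPM, and macrophage genes to at most 109 and 107 TPM. No gene of the marker lists was at 0 in every library. The ranges of the summed TPM overlapped for each list except the adipocyte genes. In CPM 0 of these 8 were called and 0 had separate groups, against 0.055% and 1.32% of all genes. Their log2 fold change of Knockout over Wild-Type was above 0 in 7 and below 0 in 1, with a median of 0.38. By edgeR's quasi-likelihood test 6 of 8 had an unadjusted p under 0.05, against 12.4% of all genes. So did all 4 B cell genes tested, which lay below 0 (median -2.77). No other marker list had more than 2 such genes.

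No junction gene of the 9 passed the test between genotypes. Under edgeR's quasi-likelihood test, with Benjamini-Hochberg adjustment over all genes tested and a threshold of 0.05, 0 of 9 were called against 0.055% of all genes (7 of 12716; 0.0472% were called higher in Knockout and 0.00786% lower). The groups overlapped in all 9, where 1.32% of all genes (168 of 12716) had groups that did not overlap. At an unadjusted p under 0.05 there was 1 of 9, Cldn1, against 12.4% of all genes, or 6.31% counting those higher in Knockout, the direction of Cldn1. This count rests on single libraries. It was 5 of 9 without Wild-Type 4 and 3 of 9 without Knockout 5. With limma it was 3 of 9 on TPM and 2 of 9 on the authors' values. It was 0 of 9 without Knockout 2, Knockout 6, Wild-Type 2, Wild-Type 3 or Wild-Type 5, and without the filter on low counts. With replicate number as a block, which leaves out Knockout 6, it was also 0 of 9. The same count of called members was 0 with DESeq2 and with limma on TPM or on the authors' deposited normalized values. The log2 fold change of Knockout over Wild-Type was above 0 in 6 of 9 members, with a median of 0.15, against 48.3% of all genes and a median of -0.01. By role, it was above 0 in 4 of 5 claudins and in both of the other membrane genes and below 0 in both scaffolds, although Tjp1 turned to 0.22 with limma on TPM, and Cldn3, Cldn7, Ocln and F11r lay below 0 when libraries were scaled to epithelial genes instead. What the data do show is an order of levels in TPM. With all transcripts summed, Cldn7 led it and Cldn3 followed, but the lead of Cldn7 rests on short forms. The data also show a pair of claudins (Cldn1 and Cldn4) that varied many-fold between libraries of the same genotype. In addition, a block of members went up and down together across the 11 libraries.

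Per length, Cldn7 stood first when all its transcripts were summed, and that lead rests on short forms. The sum averaged 91.2 TPM over the 11 libraries (50.0 to 152) and was the highest of the 9 in 11 of 11 libraries. Between 46.6% and 67.5% of it came from Cldn7-202 and Cldn7-203, listed with 250 and 387 bases. Cldn7-204, the form of 636 bases, averaged 35.6 TPM alone (20.7 to 55.6) and was above Cldn3 in 3 of 11 libraries. Taken alone, this form was the highest of the 9 in 1 of 11 libraries. In reads, which at near equal coding length compare the genes without this division, Cldn7 exceeded Cldn3 in 6 libraries and Cldn3 exceeded Cldn7 in 5, with ratios of 0.820 to 1.45. Claudin 7 is a claudin of many simple epithelia that is also found along the lateral membrane. Cldn3, a sealing claudin, followed at 40.1 TPM (23.9 to 61.8), and F11r at 35.9 TPM (26.3 to 48.5). Cldn3 was above F11r in 8 of 11 libraries, so the order of these neighbours was not fixed. Cldn8, best known from the distal tubule of the kidney, where it takes part in a chloride pathway, averaged 24.7 TPM (16.9 to 36.1), below F11r in 9 of 11 libraries. Cldn4 came next by its mean of 18.7 TPM, but that mean covers a range from 1.07 to 63.7 with a median of 3.79, and Cldn4 was above the next gene, Tjp3, in only 5 of 11 libraries.

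The lower part of the order held the scaffolds, occludin and Cldn1. Tjp3 averaged 8.51 TPM (5.48 to 13.8) and was above Tjp1 in 11 of 11 libraries. Tjp1, at 4.33 TPM (2.83 to 5.84), and Ocln, at 4.10 TPM (2.63 to 6.15), were not ordered, with Tjp1 higher in 6 of 11. Cldn1, a claudin required for the barrier of the skin, had the lowest mean, 2.67 TPM, and ranged from 0.271 to 6.04. It was the lowest of the 9 in 7 of 11 libraries. Every neighbouring pair in this order had overlapping ranges over the libraries. The steps from summed Cldn7 to Cldn3 and from Tjp3 to Tjp1 held within every library, the former not for Cldn7-204 alone.

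The 5 claudins carried most of the claudin transcripts of the gland. Of 24 claudin genes measured, they held between 87.3% and 91.1% of the summed claudin TPM of a library, with the short forms of Cldn7 included. Among the 19 others, 13 averaged under 1 TPM, and Cldn11, Cldn14, Cldn16, Cldn18 and Cldn24 were listed at 0 in every library. The highest of the others were Cldn5, the claudin of endothelial cells, at 8.23 TPM, Cldn12 at 5.50 TPM and Cldn10 at 2.52 TPM. Within the 5 members Cldn7 took 42.1% to 59.9% of their summed TPM in Knockout and 47.9% to 54.1% in Wild-Type, and Cldn3 took 16.7% to 24.6% in Knockout and 21.9% to 27.2% in Wild-Type. With Cldn7-204 as the only Cldn7 form, its share was 23.2% to 34.9% in Knockout and 23.0% to 33.9% in Wild-Type, and that of Cldn3 was 24.7% to 37.2% and 30.3% to 42.1%. The shares of Cldn8 and Cldn4, again with all forms summed, moved by several-fold between libraries. Cldn8 took between 6.95% and 19.1% (median 11.4%) in Knockout and between 9.43% and 27.2% (median 21.2%) in Wild-Type. Cldn4 took between 1.09% and 23.9% (median 9.57%) in Knockout and between 1.04% and 12.3% (median 2.85%) in Wild-Type. Cldn1 never exceeded 2.44%. The ranges of both genotypes overlapped for each claudin, and these shares were not tested.

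**Figure D1:**
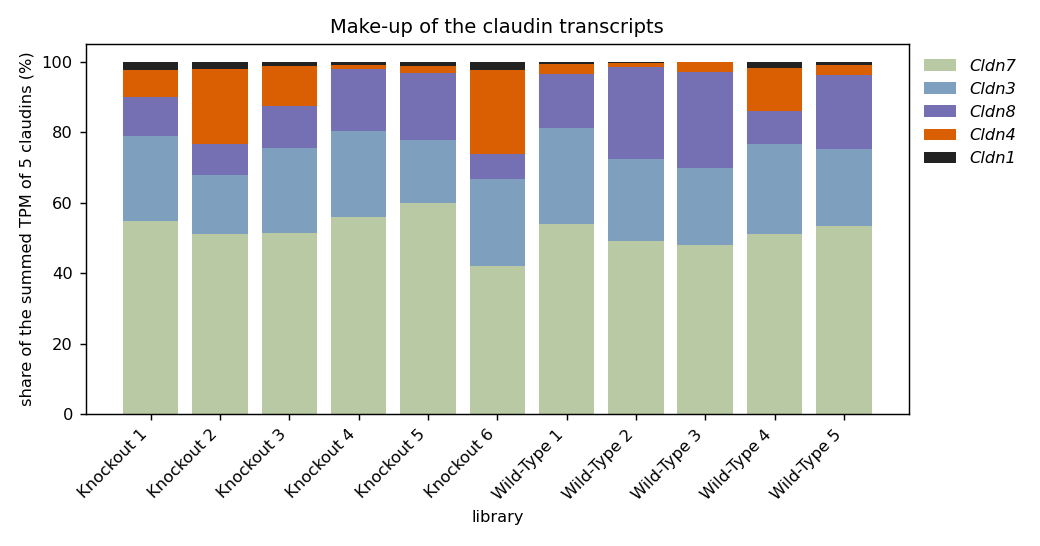
Share of each of the 5 member claudins in their summed TPM (percent, stacked bars, 1 bar per library). Cldn7, with its short forms included, took 42.1% to 59.9% of every bar, while the Cldn4 share ran from 1.04% in Wild-Type 2 to 23.9% in Knockout 6.

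Cldn4 and Cldn3 are neighbours on mouse chromosome 5 and are related in sequence, which bears on how reads are assigned. In the GENCODE M21 annotation of GRCm38, Cldn4 (ENSMUSG00000047501) lies at chr5:134945119-134946934 on the minus strand and Cldn3 (ENSMUSG00000070473) at chr5:134986214-134987472 on the plus strand, 39279 bases apart. The coding sequences of the 9 members were cut into words of 31 bases. Cldn3 and Cldn4 shared 5 of these words with each other, 0.794% of those of Cldn3 and 0.829% of those of Cldn4, and the other 7 members shared none with any member. The shared words form 1 run of 35 bases, at coding bases 211 to 245 of Cldn3 (chr5:134986655-134986689, plus strand) and 214 to 248 of Cldn4 (chr5:134946498-134946532, minus strand). It is shown because it is the stretch that these words find in common between members, written 5′ to 3′ with no part singled out.
Cldn3 and Cldn4: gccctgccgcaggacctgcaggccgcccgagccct
The other 7 members lie elsewhere. Cldn1 (ENSMUSG00000022512) is at chr16:26356642-26371841 on the minus strand and Cldn8 (ENSMUSG00000050520) at chr16:88560828-88563183 on the minus strand. Cldn7 (ENSMUSG00000018569) is at chr11:69964779-69967885 on the plus strand. Ocln (ENSMUSG00000021638) is at chr13:100496507-100552718 on the minus strand and F11r (ENSMUSG00000038235) at chr1:171437535-171464603 on the plus strand. Tjp1 (ENSMUSG00000030516) is at chr7:65296165-65527781 on the minus strand and Tjp3 (ENSMUSG00000034917) at chr10:81273207-81291581 on the minus strand.

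Promoter sequences from RefSeq (GRCm38.p6) were matched for 8 of the 9 members, with 11 start sites in all; Cldn8 was not matched. The 250 bases before the start are shown for Cldn4 and Cldn1, the members that varied most, and for Cldn3, the neighbour of Cldn4 that varied much less. Capitals mark matches, on either strand, to an E-box CAGGTG, a letter string that the Snail and Zeb repressors of epithelial genes bind, or to a GC box GGGCGG, a string bound by Sp1. On the opposite strand they read CACCTG and CCGCCC.
Cldn4 (chr5:134946935-134947184, minus strand): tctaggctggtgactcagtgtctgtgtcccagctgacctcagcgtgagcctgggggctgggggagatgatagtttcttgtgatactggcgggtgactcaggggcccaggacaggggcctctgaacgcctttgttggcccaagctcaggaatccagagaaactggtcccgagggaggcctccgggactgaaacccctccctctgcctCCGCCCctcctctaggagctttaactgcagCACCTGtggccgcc
Cldn3 (chr5:134985964-134986213, plus strand): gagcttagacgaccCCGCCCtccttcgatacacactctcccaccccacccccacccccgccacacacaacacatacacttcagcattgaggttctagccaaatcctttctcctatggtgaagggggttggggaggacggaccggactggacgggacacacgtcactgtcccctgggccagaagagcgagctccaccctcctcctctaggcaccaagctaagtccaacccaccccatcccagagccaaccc
Cldn1 (chr16:26371840-26372089, minus strand): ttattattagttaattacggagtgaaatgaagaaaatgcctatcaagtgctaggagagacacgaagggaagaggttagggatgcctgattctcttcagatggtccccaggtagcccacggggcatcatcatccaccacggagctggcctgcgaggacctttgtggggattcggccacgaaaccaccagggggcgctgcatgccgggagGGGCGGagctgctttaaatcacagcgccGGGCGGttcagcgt
The 11 member promoters belong to 8 genes, with 2 each for Cldn7, Ocln and Tjp3, and the 2 of Ocln overlap. Their GC content ran from 43.2% (Tjp3) to 69.2% (Ocln), and the promoters set beside them were not matched for it. Of the 11 member promoters, 6 held the E-box, against 17.3% of 32536 promoters of the same length, and 8 held the GC box, against 33.0%. None held the grainyhead-like core AACCGGTT (0.117% of all promoters) or TATAAA (12.3%). The strings do not overlap one another, and a match is a match of letters only.

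Cldn4 varied more than any other member. In Knockout it measured 12.6, 52.4, 19.4, 1.56, 2.94 and 52.8 CPM in replicates 1 to 6, and in Wild-Type 3.99, 1.17, 4.52, 25.9 and 3.69 CPM in replicates 1 to 5. Knockout 2 and Knockout 6 were the highest, Knockout 4 was next to the lowest, and Wild-Type 4 lay above 4 of the 6 Knockout libraries. Knockout 2 and Knockout 6 were above every Wild-Type library, and without Wild-Type 4 the Wild-Type libraries reached 4.52 CPM at most. Knockout averaged 23.6 ± 23.4 CPM (SD, n = 6), and the Wild-Type mean was 7.85 ± 10.2 CPM (SD, n = 5). On the log2 scale Knockout exceeded Wild-Type by 1.57 ± 1.03 (SE), with a 95% interval from -0.74 to 3.89 and an adjusted p of 0.566 in edgeR's quasi-likelihood test. Counts were between 28 and 1857 per library.

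Cldn1 had the only unadjusted p under 0.05 among the members. It measured 3.93, 4.95, 1.92, 1.53, 1.58 and 5.32 CPM in Knockout and 0.735, 0.459, 0.314, 3.55 and 1.12 CPM in Wild-Type. Every Knockout library was above 4 of the 5 Wild-Type libraries, and Wild-Type 4 was above 3 of the 6 Knockout libraries. Its log2 fold change came to 1.36 ± 0.61 (SE), with a 95% interval from 0.0029 to 2.71 and an adjusted p of 0.403 in edgeR's quasi-likelihood test. Counts were low, from 10 to 187 per library.

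Cldn7 showed the same arrangement on a smaller scale. It measured 41.7, 58.8, 43.8, 40.7, 39.4 and 48.4 CPM in Knockout and 30.9, 31.9, 32.9, 53.2 and 34.4 CPM in Wild-Type. Again every Knockout library was above 4 of the 5 Wild-Type libraries, and Wild-Type 4 was above all but Knockout 2. A log2 fold change of 0.31 ± 0.15 resulted (SE, 95% interval -0.02 to 0.64, edgeR adjusted p = 0.432).

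Cldn3, in contrast to its neighbour Cldn4, stayed within a 2.13-fold range. It measured 43.0, 43.7, 42.9, 36.9, 27.2 and 57.9 CPM in Knockout and 37.6, 27.7, 36.7, 56.6 and 30.4 CPM in Wild-Type. Knockout 6 and Wild-Type 4 were the highest and Knockout 5 and Wild-Type 2 the lowest, so that each genotype spanned nearly the whole range. The log2 fold change was 0.15 ± 0.20 (SE, 95% interval -0.30 to 0.60, edgeR adjusted p = 0.801). Cldn3 overlaps an antisense gene, Wbscr25, in the annotation.

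Cldn8 was the only one of the 5 member claudins with a log2 fold change below 0. It measured 19.2, 22.7, 21.1, 26.3, 29.1 and 16.3 CPM in Knockout and 20.5, 30.1, 44.8, 20.9 and 29.2 CPM in Wild-Type. Wild-Type 3 was the highest and Knockout 6 the lowest, and the Wild-Type libraries 1 and 4 lay among the Knockout libraries. The log2 fold change was -0.37 ± 0.21 (SE, 95% interval -0.83 to 0.08, edgeR adjusted p = 0.491). It was -0.16 without Wild-Type 3 and -0.12 with limma on TPM.

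The other membrane members differed little. Ocln, whose product occludin is a regulatory component of the strands, measured 10.4, 14.5, 11.8, 10.2, 8.15 and 12.3 CPM in Knockout and 10.1, 6.93, 9.08, 11.4 and 8.25 CPM in Wild-Type. Its highest libraries, Knockout 2 and Knockout 6, were also the highest in Cldn4, and its log2 fold change was 0.29 ± 0.15 (SE, 95% interval -0.04 to 0.62, edgeR adjusted p = 0.468). F11r, whose product also mediates adhesion of leukocytes and platelets, measured 61.1, 64.0, 65.0, 53.6, 44.6 and 70.0 CPM in Knockout and 64.8, 52.2, 53.6, 71.0 and 52.2 CPM in Wild-Type. Both groups covered much of the same range, and the log2 fold change was 0.02 ± 0.12 (SE, 95% interval -0.24 to 0.29, edgeR adjusted p = 0.956).

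The scaffolds had log2 fold changes below 0 under TMM scaling. Tjp1, which is expressed in endothelium as well as in epithelium, measured 50.9, 68.6, 58.6, 58.0, 52.0 and 58.0 CPM in Knockout and 54.9, 43.1, 71.5, 71.9 and 49.0 CPM in Wild-Type. The Knockout libraries lay inside the Wild-Type range, with a log2 fold change of -0.01 ± 0.14 (SE, 95% interval -0.30 to 0.28, edgeR adjusted p = 0.984). Tjp1 overlaps 3 predicted genes in the annotation, Gm44792, Gm44794 and Gm44795. Tjp3, a scaffold of epithelial cells, measured 73.6, 40.7, 49.5, 41.3, 53.9 and 52.3 CPM in Knockout and 60.2, 59.4, 73.5, 63.7 and 57.0 CPM in Wild-Type. All Knockout libraries except Knockout 1 were below all Wild-Type libraries, and the log2 difference was -0.27 ± 0.14 (SE, 95% interval -0.58 to 0.03, edgeR adjusted p = 0.450). Tjp3 overlaps the protein-coding gene Apba3 on the opposite strand, and whether counting used strand is not given in the sources used here.

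**Figure D2:**
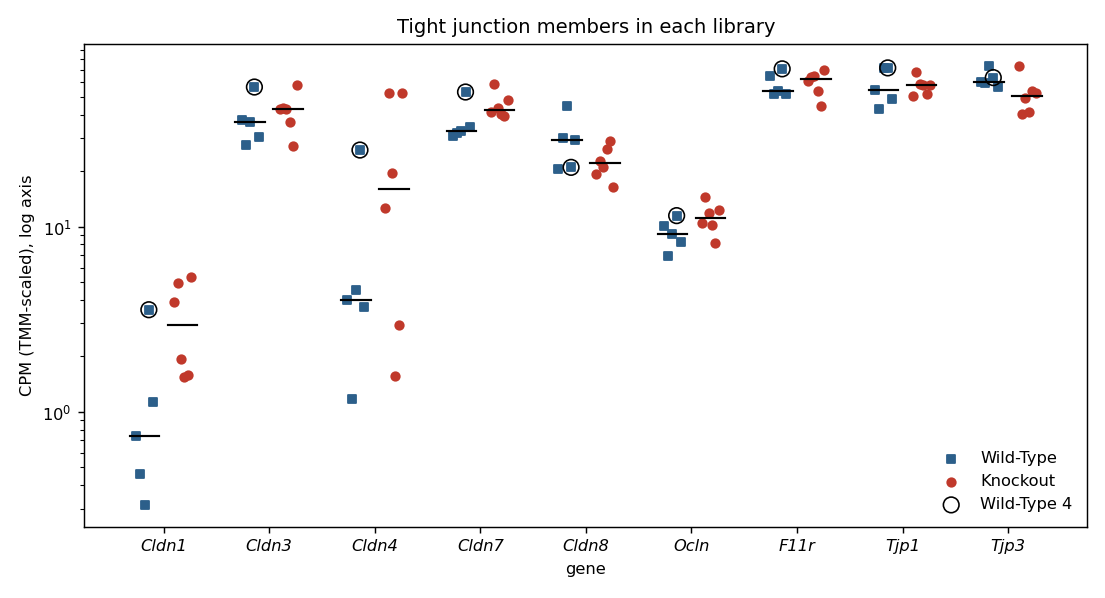
Level of each member in each library (TMM-scaled CPM, log axis; squares Wild-Type, circles Knockout, bars the median of a group, ringed points Wild-Type 4). Wild-Type 4 stands apart from the other Wild-Type libraries in Cldn1, Cldn4 and Cldn7, and the groups overlap in all 9 genes.

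**Figure D3:**
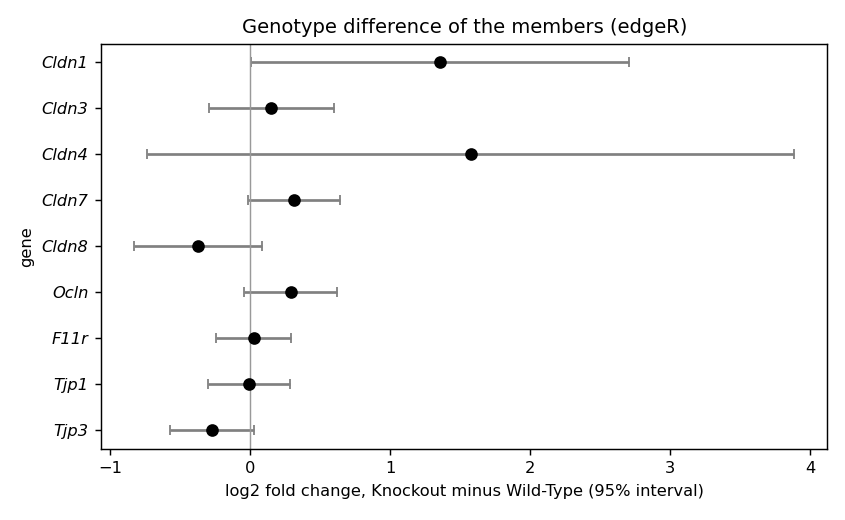
Log2 fold change of each member, Knockout minus Wild-Type, from edgeR (points), with 95% intervals (bars) and a line at 0. Cldn1 and Cldn4 have the largest values, 1.36 and 1.57, and the widest intervals; the interval of Cldn1 starts at 0.0029 and all others include 0.

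The width of these intervals follows from the spread within a genotype. The standard deviation of log2 CPM within a genotype was 1.88 for Cldn4, above that of 99.4% of all genes tested, and 1.04 for Cldn1, above that of 97.0%. It was 0.38 for Cldn8 and for Cldn3, 0.28 for Ocln, 0.27 for Cldn7, 0.25 for Tjp3 and Tjp1 and 0.22 for F11r, with a median of 0.23 over all genes. Among the 1000 genes nearest in level the median was 0.33 for Cldn1, 0.19 for Cldn4, 0.18 for Ocln, 0.16 for Cldn8 and 0.15 for the other 5 members. Within those genes the share that varied less was 75.5% for F11r, 80.7% for Tjp1, 81.0% for Tjp3, 80.2% for Ocln, 82.3% for Cldn7, 91.5% for Cldn3, 93.2% for Cldn8, 95.3% for Cldn1 and 99.8% for Cldn4. From the lowest to the highest library, Cldn4 differed 45.2-fold and Cldn1 16.9-fold. The other 7 members differed by between 1.59-fold for F11r and 2.75-fold for Cldn8. Cldn4 varied strongly inside each genotype, 33.8-fold in Knockout and 22.1-fold in Wild-Type, whereas Cldn1 varied 3.47-fold in Knockout and 11.3-fold in Wild-Type. Without Wild-Type 4 the Wild-Type folds were 3.87 for Cldn4 and 3.58 for Cldn1.

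**Figure D4:**
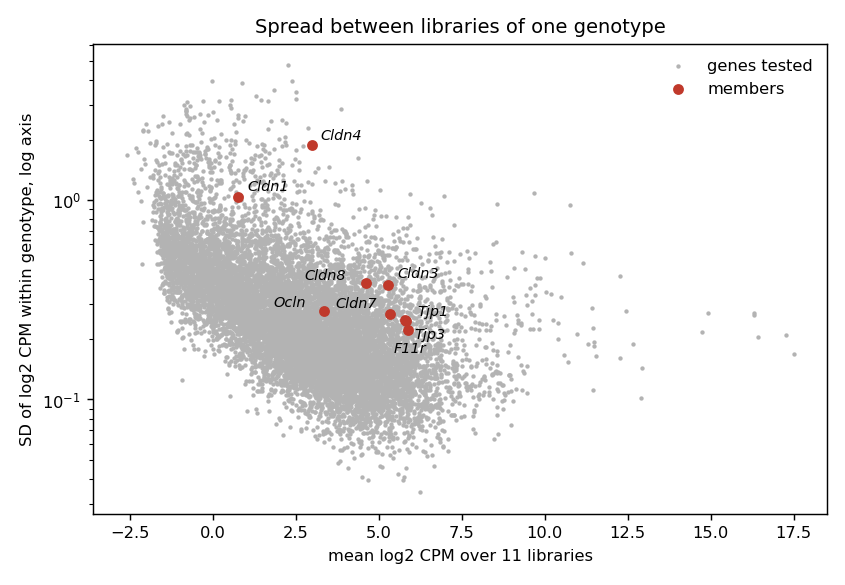
Standard deviation of log2 CPM within a genotype (log axis) against mean log2 CPM over the 11 libraries, for all genes tested (grey) and the 9 members (red). Cldn4 at 1.88 and Cldn1 at 1.04 lie near the upper edge of the cloud at their level, and the other 7 lie between 0.22 and 0.38.

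Wild-Type 4 stood apart in CPM from the other 4 Wild-Type libraries in Cldn1, Cldn4 and Cldn7, and 11-library results were therefore also computed without it. The log2 fold change of Cldn1 then became 2.28 (edgeR adjusted p = 0.153), that of Cldn4 2.81 (adjusted p = 0.266) and that of Cldn7 0.49 (adjusted p = 0.153). Those of Cldn3, Ocln and F11r became 0.35, 0.39 and 0.11, Cldn8 became -0.47, Tjp3 -0.26 and Tjp1 0.08, and none of the 9 was called. At an unadjusted p under 0.05 there were then 5 of 9, Cldn1, Cldn4, Cldn7, Cldn8 and Ocln, beside 1956 of 12876 genes. Wild-Type 4 also had the highest epithelial sum of its group, 304 TPM against 131 to 156 TPM in the other Wild-Type libraries, and the highest sum over all 9 members, 311 TPM against 144 to 175 TPM. The part of the epithelial level in these values was not tested.

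Across the 11 libraries, 6 members went up and down together. These were Cldn1, Cldn3, Cldn4, Cldn7, Ocln and F11r, a set picked after their values were seen. In Knockout 2, Knockout 3, Knockout 6 and Wild-Type 4 all 6 were above their median over the libraries, and in Knockout 1 5 of 6 were. In Knockout 4, Knockout 5, Wild-Type 2, Wild-Type 3 and Wild-Type 5 none of the 6 was above it, and in Wild-Type 1 only 1 was. High and low libraries thus occurred in both genotypes, though Wild-Type 4 was the only high one in Wild-Type. In Knockout, replicates 1, 2, 3 and 6 were high.

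Correlations of log2 CPM were computed for all 36 pairs of members, each with a permutation p from 100000 resamples and Benjamini-Hochberg adjustment over the 36. Of these, 17 passed an adjusted threshold of 0.05 by Pearson's r, 14 positive and 3 negative, and all 17 had the same sign in both genotypes. By Spearman's rho 16 of the 17 passed as well. The 15 pairs among the 6 members had r between 0.55 and 0.91, of which 13 passed. Leaving out the 2 libraries farthest from the median of the first gene gave 0.46 to 0.90, and the Knockout libraries alone (n = 6) gave 0.55 to 0.96. Over all 80841970 pairs of genes tested the median r was -0.001, and 6.28% of pairs reached the lowest value of the 15, whose median was 0.79. The resamples shuffled all 11 libraries without regard to genotype, so a genotype difference that 2 genes share enters their r and p. Members of a library share its scaling, and the set was chosen on these values, so these figures are a description.

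The closest pair was Cldn3 with F11r, with r = 0.91 (permutation p = 4.0e-05, adjusted p = 0.00144) and rho = 0.909 (p = 0.0002, adjusted p = 0.0036), r = 0.86 without Knockout 6 and Wild-Type 4. Cldn1 followed Cldn7 with r = 0.887 (permutation p = 0.0003, adjusted p = 0.00492) and rho = 0.891 (p = 0.00057, adjusted p = 0.00475), and r = 0.904 without Knockout 6 and Wild-Type 3. Cldn4 followed Ocln with r = 0.871 (permutation p = 0.00041, adjusted p = 0.00492) and rho = 0.882 (p = 0.00066, adjusted p = 0.00475), and r = 0.785 without Knockout 2 and Knockout 6. Among the members, Cldn3 and Cldn4 thus each had their highest Pearson's r with a gene on another chromosome. These neighbours also followed each other, with r = 0.843 (permutation adjusted p = 0.0117) and rho = 0.891. By rho, Cldn4 was closer to Cldn3 than to Ocln. In the Wild-Type libraries alone, r of Cldn4 was 0.960 with Cldn3 and 0.908 with Ocln. In the Knockout libraries alone it was 0.784 with Cldn3 and 0.826 with Ocln.

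Cldn8 ran against these 6 members. Its r with the 6 members was between -0.79 and -0.54, and 3 of these 6 pairs passed. With Cldn1, r was -0.787 (permutation p = 0.00353, adjusted p = 0.0159) and rho was -0.736 (p = 0.0124, adjusted p = 0.0291), and r was -0.566 without Knockout 6 and Wild-Type 3. In the Knockout libraries alone the 6 values lay between -0.93 and -0.36. Tjp1 had r between 0.26 and 0.67 with the 6, of which 1 pair, that with Ocln, passed by Pearson's r (r = 0.672, permutation adjusted p = 0.0494). By Spearman's rho that pair did not pass (permutation adjusted p = 0.104), and r was 0.366 without Knockout 2 and Wild-Type 2. Tjp3 had r between -0.46 and 0.22 with all 8 others, and none passed.

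**Figure D5:**
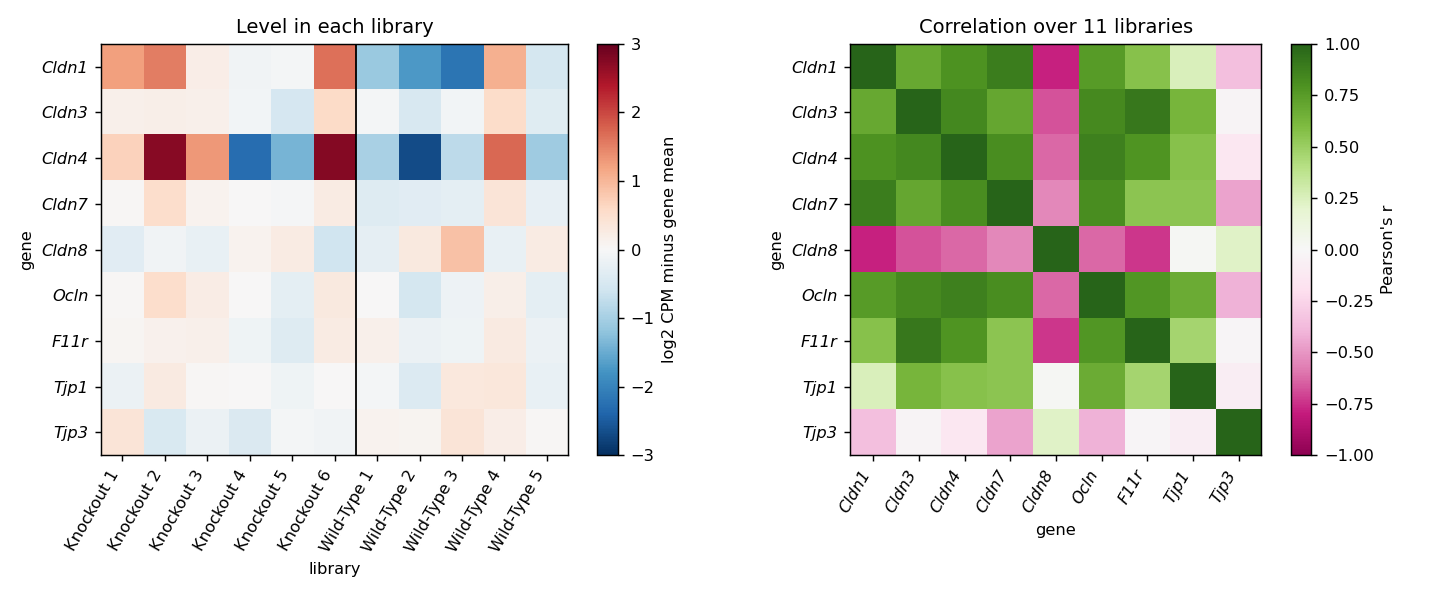
Left, log2 CPM of each member minus its mean over the 11 libraries (red above, blue below; Knockout left of the line, Wild-Type right). Right, Pearson's r over the 11 libraries for each pair of members (green positive, magenta negative). Cldn1, Cldn3, Cldn4, Cldn7, Ocln and F11r form a green block with r from 0.55 to 0.91, and the Cldn8 row is magenta against them.

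Genes outside the members were ranked by their correlation with the mean profile of the 9. The 5 most alike were Lsr with r = 0.964, Klf5 with 0.962, Thbs1 with 0.944, Rnf19a with 0.935 and Apaf1 with 0.931, over 11 libraries and with a median of -0.02 over all genes. Lsr encodes the lipolysis-stimulated receptor, which marks the corners where 3 cells meet, Klf5 an epithelial transcription factor, Thbs1 the matrix protein thrombospondin 1, Rnf19a a ubiquitin ligase and Apaf1 the core of the apoptosome. None of these 5 was called between genotypes, with edgeR adjusted p-values from 0.529 to 0.773. The mean profile is dominated by Cldn4 and Cldn1, whose values vary most.

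The members followed the epithelial list to different degrees, and the values depend on Knockout 5. The correlation of log2 CPM with the mean of the 5 epithelial genes over the 11 libraries was 0.79 for Cldn7, 0.68 for Cldn4, 0.65 for Cldn1, 0.60 for Ocln, 0.59 for Tjp1 and 0.49 for Cldn3. It was 0.27 for F11r, -0.20 for Tjp3 and -0.30 for Cldn8. Without Knockout 5 it became 0.86 for Cldn3, 0.76 for F11r, 0.89 for Cldn4 and for Cldn7, 0.88 for Ocln, 0.76 for Tjp1 and 0.73 for Cldn1, and it was -0.43 for Cldn8 and -0.20 for Tjp3. Knockout 5 had the highest Krt19 level, 21.6 TPM against 2.74 to 11.6 TPM in the other libraries. For Tjp3 it lay between -0.37 (without Knockout 4) and 0.027 (without Knockout 2) when 1 library was left out. In the epithelial list itself 5 of 5 genes had log2 fold changes above 0, with a median of 0.31 and 0 called.

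The genotypes were therefore also compared relative to these 5 epithelial genes, by scaling each library to them. This moved the median log2 fold change of all genes from -0.01 to -0.37, and 0.511% of all genes (65 of 12716) were called. Of the members 0 of 9 were called, 2 of 9 had an unadjusted p under 0.05 against 24.8% of all genes, and 2 of 9 had log2 fold changes above 0 against 9.13%. The median of the members was -0.14. Cldn1 and Cldn4 remained above 0, at 1.15 (edgeR adjusted p = 0.212) and 1.42 (adjusted p = 0.314). Cldn7, Ocln and Cldn3 came to -0.02, -0.04 and -0.14, F11r to -0.31 and Tjp1 to -0.32. The 2 with an unadjusted p under 0.05 were Cldn8 at -0.74 ± 0.23 (SE, edgeR adjusted p = 0.121) and Tjp3 at -0.62 ± 0.22 (SE, edgeR adjusted p = 0.149). Only Cldn1 and Cldn4 therefore lay above 0 on both scales, and only Cldn8, Tjp3 and Tjp1 below 0 on both.

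This scaling rests on few libraries. Without Wild-Type 4, 3988 of 12876 genes were called and Cldn1, Cldn8 and Tjp3 were among them. Cldn1 was also called without Knockout 3 (273 genes in all), without Wild-Type 5 (148 genes) and with the keratins alone as the reference (361 genes). Cldn8 was called without Wild-Type 1 (247 genes) and Tjp3 without Knockout 1 (451 genes).

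No difference in transcript forms was detected. Of the 9 members, 4 had at least 2 transcripts with enough reads for edgeR's test of transcript shares, and 0 of 4 were called, against 0.077% of all genes (3 of 3898), while 1.26% of all genes had an unadjusted p under 0.05. The gene p-values were 0.922 for Cldn7, 0.901 for Ocln, 0.830 for Tjp1 and 0.989 for Tjp3, each with an adjusted p of 1.00. Cldn7-204, the form with the longest coding sequence (636 bases), held 76.2% to 81.2% of the Cldn7 reads in Knockout and 72.9% to 88.3% in Wild-Type. Ocln-202 (1566 bases) held 67.5% to 79.9% in Knockout and 65.9% to 81.4% in Wild-Type, with Ocln-203 (819 bases) taking the rest. Tjp1-202 (5238 bases) held 62.2% to 74.8% in Knockout and 70.3% to 76.2% in Wild-Type, with Tjp1-201 (5058 bases) taking the rest. Tjp3-201 (2715 bases) held at least 97.8% in every library. Cldn1, Cldn3, Cldn4, Cldn8 and F11r had 1 transcript each in the tables.

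Other genes of cell junctions gave the same result. Of 99 genes in 7 lists, 80 were tested and 0 were called by edgeR or DESeq2, against 0.055% and 1.09% of all genes. By edgeR 8 of 80 had an unadjusted p under 0.05, against 12.4% of all genes. That count was 18 without Wild-Type 4 (beside 1956 of 12876 genes) and with limma on TPM (2171 of 12716). It was 2 without Wild-Type 2 (1055 of 12888), and 5 without Knockout 1 (1254 of 12574) or Knockout 5. Their log2 fold changes were above 0 in 55 and below 0 in 25, with a median of 0.08. Among the adherens junction genes, which join cells just below the tight junction, all 11 tested lay above 0, with a median of 0.16, whereas relative to the 5 epithelial genes 2 of 11 did, with a median of -0.17. In each of the other 6 lists, at most 2 genes lay above 0 on that relative scale and 0 of their genes were called. Without Wild-Type 4, 13 of 80 other junction genes were called on it, beside 3988 of 12876 genes in all. Without Knockout 1 or Wild-Type 3 there was 1, Arhgef2, named here after its value was seen, beside 451 and 497 genes in all. Cdh1, which encodes E-cadherin, had the smallest p of the adherens list, at 0.41 ± 0.17 on the log2 scale (SE, edgeR adjusted p = 0.360), beside a median of 0.31 in the epithelial list. The part of the epithelial level in this was not tested.

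In the list of other tight junction membrane proteins (9 of 11 tested, 6 above 0 and 3 below), Jam3, which encodes junctional adhesion molecule C, had the smallest p. It measured between 0.939 and 1.40 CPM in Knockout and between 1.44 and 2.04 CPM in Wild-Type, so that every Knockout library was below every Wild-Type library, as in 1.32% of all genes in either direction. In TPM its groups overlapped, at 0.564 to 0.910 in Knockout and 0.688 to 1.10 in Wild-Type. The difference was -0.56 ± 0.15 on the log2 scale (SE, edgeR adjusted p = 0.263). Among transcription factors of epithelial junctions (12 of 15 tested, 9 above 0 and 3 below), Twist1, a repressor of E-cadherin that is expressed in mesenchymal cells, measured between 0.597 and 1.02 CPM in Knockout and between 0.316 and 0.501 CPM in Wild-Type. Its groups did not overlap, and the log2 difference was 0.76 ± 0.23 (SE, edgeR adjusted p = 0.274). Fibroblast genes summed to between 40.1 and 99.2 TPM in Knockout and between 31.3 and 61.2 TPM in Wild-Type, and their part in the Twist1 value was not tested.

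The remaining lists held no called gene. In the plaque and scaffold list (17 of 18 tested, 11 above 0 and 6 below), the multiple PDZ domain protein gene Mpdz had the smallest p, at a log2 fold change of 0.86 ± 0.34 (edgeR SE and adjusted p = 0.358). In the polarity complexes (14 of 14 tested, 7 above 0 and 7 below) it was Prkci, an atypical protein kinase C, at 0.26 ± 0.11 (SE, edgeR adjusted p = 0.380). In the list of proteases, inhibitors and junction kinases 9 of 9 were tested, 6 above 0 and 3 below. Of 21 other claudins and claudin-domain genes, 8 were tested, 5 above 0 and 3 below, with Cldn12 at 0.19 (edgeR adjusted p = 0.508). Cldn5 stood at -0.01 (edgeR adjusted p = 0.995), and 7 endothelial genes summed to between 13.4 and 20.5 TPM in Knockout and between 10.2 and 17.5 TPM in Wild-Type.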

How the data were processed

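The members and gene lists were chosen with earlier results of these data known. Libraries were made from total RNA with a directional kit, per the labels' protocols. Transcripts were quantified with Salmon 1.3.0 on GRCm38.p6, per the submitters' processing notes, which also name DESeq2 1.28.1; index and library type are not given in the sources used here. The deposited tables give, per the file headers, TPM, estimated counts and effective lengths. The authors also deposited normalized gene values, treated here as a signal on their scale. Estimated counts of 57452 of 58204 transcripts were summed per gene (GENCODE M21) and rounded; the 752 unmatched transcripts carried 0.195% to 0.265% of reads. edgeR 4.0.16 (R 4.3.3) filtered low genes with filterByExpr (at most 0.0698% of reads removed), scaled by TMM and fitted genotype alone with the robust quasi-likelihood test; log2 CPM used a prior count of 2. Transcript shares were tested with edgeR's diffSpliceDGE. DESeq2 1.42.0, limma 3.58.1 (pseudocounts 0.5 for TPM and 1 for the authors' values), other scalings, no filter, transcript length offsets, a replicate block and leaving out each library were alternatives. Named were all members, the gene with the smallest p of each other list (1 such gene is not reported here), and the 5 genes most like the members' mean profile.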

Additional observations from a re-analysis of the deposited data

Results flagged for a closer look

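A single library lay far from the rest of its genotype in 3 of the 18 sets of member values in CPM (9 genes in 2 groups), where chance gives about 0.9. It was Wild-Type 4 each time. Its level of Cldn1 was 3.55 CPM against 0.314 to 1.12 CPM in the other 4 Wild-Type libraries, a gap of 0.750 of the whole range, past the 95% critical value of Dixon's test. Its level of Cldn4 was 25.9 CPM against 1.17 to 4.52 CPM (0.864 of the range). Its level of Cldn7 was 53.2 CPM against 30.9 to 34.4 CPM (0.843 of the range). On log2 CPM the gaps were 0.493 of the range for Cldn1 and 0.569 for Cldn4, which do not pass, and 0.803 for Cldn7, the only one of the 18 sets that passes on that scale. The 3 genes correlate across libraries, so these are not independent observations.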

How the results depend on the processing

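With 6 and 5 libraries, 0 of 9 members and 0 of the other junction genes tested (80, or 81 with DESeq2 and 94 without the filter) were called under each of 21 alternatives with edgeR, DESeq2 or limma. Cldn1, Cldn3, Cldn4, Cldn7, Cldn8, Ocln and Tjp3 kept the sign of their log2 fold change in each of them, with ranges of 1.10 to 2.28, 0.0426 to 0.39, 1.13 to 2.81, 0.23 to 0.56, -0.48 to -0.12, 0.20 to 0.43 and -0.39 to -0.0938. Tjp1 came to 0.22 with limma on TPM, where the median of all genes moved to 0.17, to 0.0165 with limma on the authors' values and to 0.0137 with the replicate block, and leaving out 1 library gave -0.10 to 0.0814. The replicate block covers replicates 1 to 5 and so also leaves out Knockout 6. F11r came to -0.0220 with this block, and to between -0.0200 (without Knockout 6) and 0.11 when 1 library was left out. Over all genes, 7 were called. DESeq2 called 146 (87 higher and 59 lower) and limma on TPM 3. The replicate block, which lacks Knockout 6, called 0 (1023 at an unadjusted p under 0.05). Without 1 library the count ran from 0 (without Knockout 3, with 1478 at an unadjusted p under 0.05, or Knockout 6, with 1319) to 28 (without Knockout 2). It was 2 without Knockout 1 or Wild-Type 3, 13 without Wild-Type 1 or Wild-Type 5 and 14 without Wild-Type 4. Relative to the epithelial genes, 65 genes became 361 with keratins alone and 10 with milk protein genes as the reference. With the replicate block, which lacks Knockout 6, there were 35, against 214 without Knockout 6 and no block. Leaving out 1 library gave 17 (without Knockout 5) to 3988 (without Wild-Type 4). Genes with changed transcript shares numbered 3, and 1 to 8 without 1 library. The cause of these shifts was not tested. Same-numbered libraries did not pair: their deviations from the group means correlated at -0.223 to 0.178, and 1 of 5 correlated best with its own number. Cldn1 had 10 to 187 counts a library, which limits its precision.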
